A study of Mus musculus with 39 samples.

Results

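Scavenger receptors are surface and endosomal proteins with which macrophages bind and take up modified lipoproteins, microbes, dying cells and protein aggregates. Class A receptors (Msr1, Marco) carry collagen-like stems, class B receptors (Cd36, Scarb1, Scarb2) cross the membrane at both ends, and the mannose receptor (Mrc1), stabilin-1 (Stab1), Cd163, Cd68 and Olr1 belong to other structural classes. In microglia, the resident macrophages of the brain, such receptors are known for the uptake of extracellular proteins, among them alpha-synuclein, which forms aggregates in Parkinson's disease. The 10 genes Msr1, Marco, Cd36, Scarb1, Scarb2, Mrc1, Stab1, Cd163, Cd68 and Olr1 were chosen by name, with earlier results of these data known. Counts of these genes called below are therefore descriptive. All 10 were found by their symbols among the 16144 genes of the count table. Of these, 8 passed the filter on low counts and were tested among 13034 genes. Cd163 and Olr1 did not pass and are given as counts.

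The libraries hold messenger RNA from primary microglia of newborn C57BL/6 mice, shaken off mixed cultures in which brains had been pooled by flask, at passage 1. Donors, kept in wells, received 1 µM alpha-synuclein carrying the dye Atto-488 for 14 h. Acceptors, kept in flasks at another density, received no alpha-synuclein of their own and were stained with a violet cell dye for 15 min. Donors and acceptors were sampled at 0 min and after 15, 30, 60, 150 and 300 min in a shared culture without contact, and the control was sampled at 0 min. The treatment and vessel of the control were not stated in the labels. Each of these 13 groups has 3 libraries, 39 in all. Alpha-synuclein, vessel, cell density and dye all differ between donors and acceptors, so their parts in a difference cannot be told apart. The sources do not tell whether the 3 libraries of each group were separate cultures, so p-values cover the spread between libraries, which may be technical.

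Libraries held 8649169 to 15910662 reads. Levels are in CPM, the usual read counts relative to library size, with sizes scaled by the TMM method, and 3 counts, taken as the floor, corresponded to 0.181 to 0.414 CPM. The reads are 3′ tags, for which a transcript's length does not scale the count. The library numbers in the titles form 3 runs of 13 consecutive numbers, each with 1 library of every group, and values below follow the order of runs 1, 2 and 3. The labels do not say what a run marks. Comparisons over the 6 times count 18 donor and 18 acceptor libraries as separate, without a term for run. For some receptors, such as Marco, libraries of the same run were alike across times. The standard errors and p-values of these comparisons may therefore be too small. The microglial genes Csf1r, Trem2 and C1qa were present in every population, whereas P2ry12 and Tmem119 were low, with mean levels of 5.06 and 5.66 CPM in the control. Summed over the 14 of 15 listed microglial markers that were in the table, levels were 7977 to 8351 CPM in control libraries, from 7274 to 27338 among acceptors and from 2091 to 3374 among donors. The acceptor library at 300 min from run 1 stood apart by the highest marker sum, of which C1qa made up 13846 CPM. It also stood apart by a TMM factor of 0.883, against 1.07 or more in the other acceptors. Factors were 0.828 to 0.927 in donors, a range that holds this value, and 1.08 to 1.17 in the control. That acceptor library also had the fewest reads, close to those of a donor library at 15 min (8753743). In bulk RNA, fewer cells carrying a transcript and less of it per cell cannot be told apart.

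RefSeq sequence upstream of the annotated start (GRCm38.p6, 250 bases) was found for 8 of the 10 genes, not for Msr1 and Scarb1. The windows of Marco, the gene with the largest rise, of Mrc1 and Stab1, which fell, and of Cd68, which was not called, are shown because they mark the range of responses. Capitals mark the letters searched on both strands, which were GAGGAA for the macrophage factor PU.1, TGANTCA for AP-1 and TTGCNNAA for C/EBP factors.
Marco, chr1:120505025-120505274, minus strand: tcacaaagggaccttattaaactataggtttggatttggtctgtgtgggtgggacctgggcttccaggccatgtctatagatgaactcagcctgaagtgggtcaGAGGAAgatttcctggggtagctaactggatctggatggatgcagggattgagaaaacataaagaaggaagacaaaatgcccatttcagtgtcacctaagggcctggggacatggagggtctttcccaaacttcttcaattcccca
Mrc1, chr2:14229164-14229413, plus strand: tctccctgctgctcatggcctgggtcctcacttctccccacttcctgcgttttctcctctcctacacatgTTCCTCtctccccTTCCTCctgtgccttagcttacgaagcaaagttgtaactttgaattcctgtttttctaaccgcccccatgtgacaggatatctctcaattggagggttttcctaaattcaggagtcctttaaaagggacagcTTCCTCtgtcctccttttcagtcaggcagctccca
Stab1, chr14:31168642-31168891, minus strand: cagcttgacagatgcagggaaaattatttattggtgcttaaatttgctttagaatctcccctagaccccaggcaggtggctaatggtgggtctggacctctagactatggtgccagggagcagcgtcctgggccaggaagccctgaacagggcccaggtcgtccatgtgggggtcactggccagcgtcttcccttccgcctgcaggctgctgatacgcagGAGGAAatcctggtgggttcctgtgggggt
Cd68, chr11:69666171-69666420, minus strand: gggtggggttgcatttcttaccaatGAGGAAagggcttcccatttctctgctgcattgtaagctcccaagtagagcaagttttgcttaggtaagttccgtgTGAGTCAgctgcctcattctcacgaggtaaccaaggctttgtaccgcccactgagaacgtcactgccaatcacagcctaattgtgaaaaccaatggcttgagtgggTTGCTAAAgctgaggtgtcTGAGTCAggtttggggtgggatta
The PU.1 letters stood once in the window of Marco, 3 times in that of Mrc1 as TTCCTC on the opposite strand, once in that of Stab1 and once in that of Cd68, where the AP-1 letters stood 2 times and the C/EBP letters once. Of 32851 upstream windows of the same length, 23.3% held the PU.1 letters, 6.75% the AP-1 letters and 9.56% the C/EBP letters. The letters TGACNNNGC (NRF2 type, in 10.2% of windows) were found once, in the window of Scarb2, and TCACGTGA (a lysosomal gene element, in 0.785%) in none of the 8. The AP-1 letters overlap the NRF2 letters where TGACTCA is followed by GC. Over all 8 windows, the PU.1 letters were found in 5 (Marco, Mrc1, Stab1, Cd68 and Olr1) and not in those of Cd36, Scarb2 and Cd163. The AP-1 letters were found in 2 (Cd68 and Olr1) and the C/EBP letters in 1 (Cd68). A match of letters is a description of the window, not a site.

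In donors at 0 min, after alpha-synuclein and before co-culture, the class A receptors were higher than in the control and the mannose receptor, stabilin-1 and the lysosomal Scarb2 were lower. In quasi-likelihood tests by edgeR, with p adjusted by Benjamini-Hochberg over 13034 genes, 5 of the 8 tested receptors were called at an adjusted p under 0.05, 2 higher (Msr1 and Marco) and 3 lower (Scarb2, Mrc1 and Stab1), where 19.7% of all genes were called, 10.3% higher and 9.34% lower. The same 5 did not overlap between the 3 donor and 3 control libraries, as 35.1% of all genes did not. The median log2 fold change of the 8 was -0.34, against -0.03 over all genes tested. Against acceptors, averaged over the 6 times, 6 of 8 were called, the same 2 higher and 4 lower (Scarb1, Scarb2, Mrc1 and Stab1), with a median of -0.35 against -0.08 over all genes. There 62.6% of all genes were called, 29.5% higher and 33.0% lower, so the share of receptors called is near the background. Both comparisons use donor libraries, and are given side by side.

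**Figure D1:**
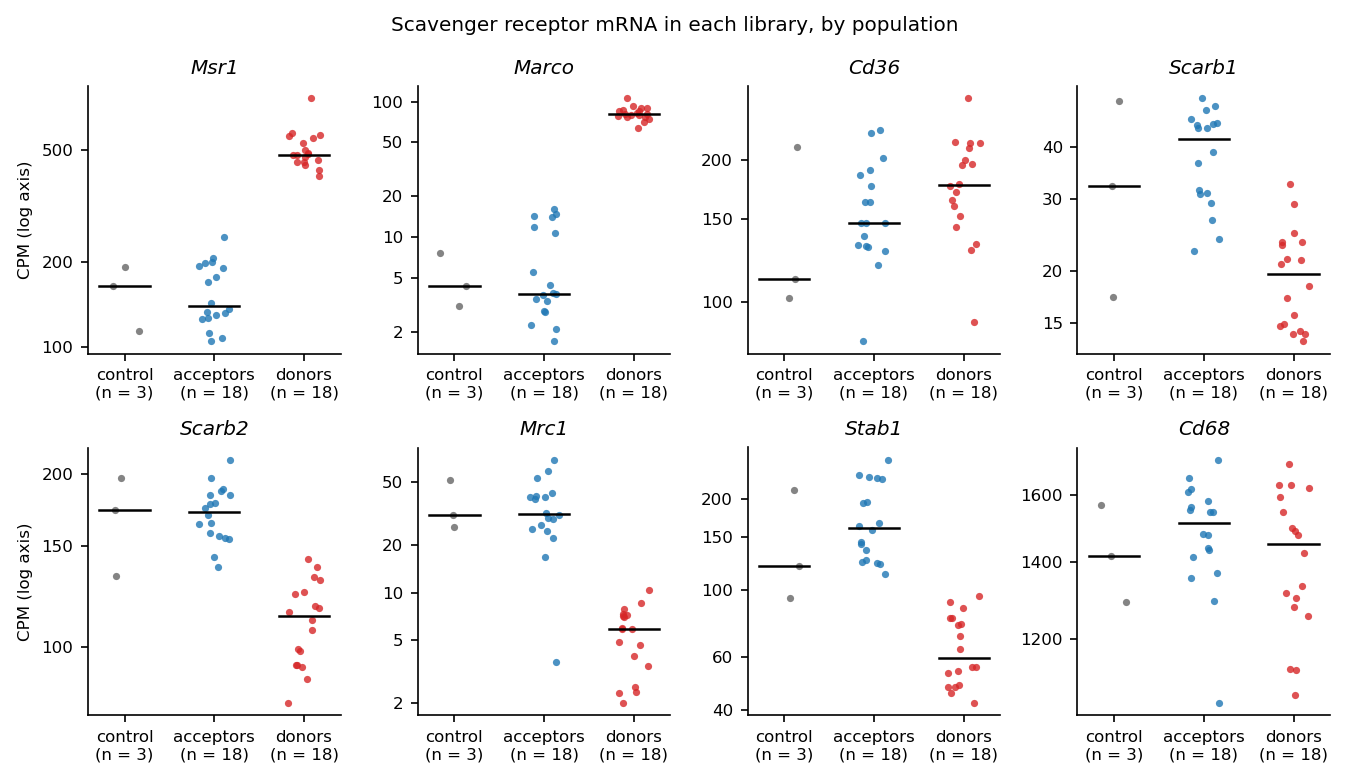
CPM of each tested receptor in single libraries (points, log axes that differ between panels) of the control (n = 3), acceptors (n = 18) and donors (n = 18), with bars at the medians. Msr1 and Marco are higher in all 18 donor libraries than in all others, Stab1 is lower in donors than in all acceptors, and Cd36 and Cd68 overlap throughout.

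Msr1 (chromosome 8, 39581685 to 39642673, minus strand, GENCODE M21 on GRCm38) encodes the class A receptor for acetylated and oxidised lipoproteins. In the control its level was 164, 191 and 113 CPM. In acceptors it was 133, 176 and 126 at 0 min, 132, 245 and 107 at 15 min, 129, 199 and 104 at 30 min, 126, 201 and 111 at 60 min, 136, 189.8 and 143 at 150 min, and 193, 207 and 170.0 at 300 min. In donors it was 469, 440.2 and 762 at 0 min, 461, 423 and 574 at 15 min, 453, 405 and 561 at 30 min, 450.5, 486 and 564 at 60 min, 482, 479.8 and 477 at 150 min, and 526, 498 and 552 at 300 min. No donor library overlapped any other, the lowest donor value being 405 CPM and the highest acceptor value 245. The fitted difference was 1.84 ± 0.28 log2 units against the control (SE, adjusted p = 9.17e-06, edgeR) and 1.68 ± 0.11 against acceptors over the 6 times (adjusted p = 1.10e-14, edgeR), a 3.21-fold difference. At single times it ran from 1.94 log2 units at 0 min to 1.47 at 300 min, called at each. The highest donor value, 762 CPM, belonged to the library of run 3 at 0 min.

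Marco (chromosome 1, 120474538 to 120505024, minus strand), the class A receptor that binds bacteria and inert particles, had the largest fold difference of the 8. In the control its level was 4.37, 7.57 and 3.10 CPM. In acceptors it was 3.79, 14.1 and 1.70 at 0 min, 2.84, 14.2 and 3.72 at 15 min, 4.42, 14.7 and 2.79 at 30 min, 2.25, 10.7 and 3.85 at 60 min, 3.38, 15.996 and 2.09 at 150 min, and 5.502, 11.8 and 3.51 at 300 min. In donors it was 74.2, 80.0 and 76.8 at 0 min, 82.0, 89.2 and 85.9 at 15 min, 78.0, 70.6 and 85.1 at 30 min, 80.3, 79.4 and 85.4 at 60 min, 92.4, 77.1 and 63.8 at 150 min, and 80.2, 106 and 88.8 at 300 min. Donors lay between 63.8 and 106 CPM and all other libraries between 1.70 and 15.996. The fitted difference was 3.94 ± 0.71 log2 units against the control (SE, adjusted p = 0.000108, edgeR), a 15.4-fold difference, and 3.60 ± 0.28 against acceptors (adjusted p = 6.00e-13, edgeR), a 12.1-fold one. Of all genes tested, 5.70% were higher in all 18 donor libraries than in all 18 acceptor libraries, as Msr1 and Marco were.

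Both class A genes were highest in run 2 among acceptors, Marco without overlap and Msr1 with overlap between runs 1 and 2. In run 2 the acceptor libraries had 10.7 to 15.996 CPM of Marco, against 2.25 to 5.502 in run 1 and 1.70 to 3.85 in run 3. The control library of run 2 was the highest of the 3 as well. Msr1 in acceptors was 176 to 245 CPM in run 2, 126 to 193 in run 1 and 104 to 170.0 in run 3. Donors did not share the pattern, with Marco at 70.6 to 106 CPM in run 2, 74.2 to 92.4 in run 1 and 63.8 to 88.8 in run 3. The coefficient of variation of Marco was thus 76.6% over acceptors and 11.2% over donors. What the runs contribute to these levels was not tested, and the donor library was higher in all 18 pairs of one run and time for both genes.

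**Figure D2:**
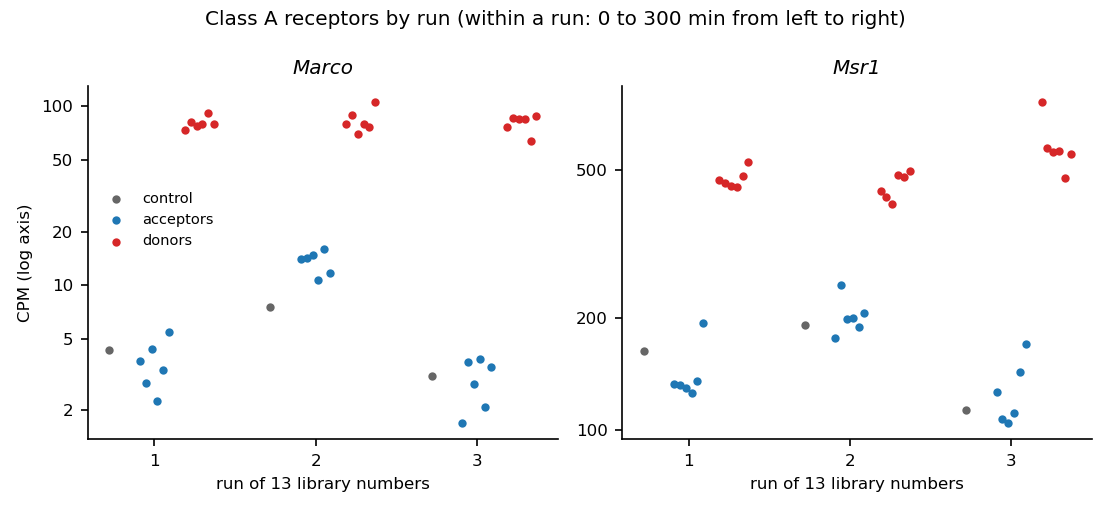
CPM (log axes) of Marco and Msr1 in every library by run of 13 library numbers, with the control, acceptors and donors side by side and 0 to 300 min from left to right within each. Acceptors of run 2 lie at 10.7 to 15.996 CPM of Marco, above those of runs 1 and 3, and donors lie above 63 CPM in each run.

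Mrc1 (chromosome 2, 14229392 to 14332057, plus strand), the mannose receptor CD206 that takes up glycoproteins, had the largest fold difference among those lower in donors. In the control its level was 25.8, 30.8 and 51.7 CPM. In acceptors it was 16.8, 29.7 and 40.5 at 0 min, 26.9, 22.1 and 58.3 at 15 min, 24.4, 29.2 and 69.2 at 30 min, 31.0, 31.7 and 52.6 at 60 min, 25.2, 42.8 and 40.4 at 150 min, and 3.67, 40.4 and 39.1 at 300 min. In donors it was 8.67, 5.88 and 7.12 at 0 min, 7.86, 2.34 and 7.24 at 15 min, 7.05, 5.99 and 2.52 at 30 min, 7.38, 2.01 and 4.67 at 60 min, 5.88, 2.32 and 3.996 at 150 min, and 10.4, 3.45 and 4.91 at 300 min. Donors lay between 2.01 and 10.4 CPM, and of the acceptors only the library of run 1 at 300 min, which stood apart in its marker sum and TMM factor, fell within that range, at 3.67. The fitted difference was -2.31 ± 0.60 log2 units against the control (SE, adjusted p = 0.00548, edgeR) and -2.65 ± 0.25 against acceptors (adjusted p = 5.13e-11, edgeR), a 6.26-fold difference. At 300 min it was -2.15 log2 units with that library and -2.66 without it (adjusted p = 0.00850 and 0.000569, edgeR). Mrc1 is also a marker of macrophages at the brain's borders. Over the 11 listed border macrophage markers, the sum was 1142 to 1253 CPM in control libraries. It was 1003 to 1661 among acceptors and 514 to 1018 among donors. Of the 9 tested, 4 were lower and 0 higher in donors than in the control, where 19.7% of all genes were called, 9.34% lower. Against acceptors over the 6 times, 8 were lower and 1 higher, where 62.6% of all genes were called, 33.0% lower. The lower levels were not particular to this list. Of 14 tested microglial markers, 10 were lower and 1 higher than in the control, and 13 lower and 1 higher than in acceptors. Their medians were -1.66 and -1.62 log2 units, against -1.03 and -0.87 for the border macrophage markers. In the control the listed border macrophage markers Lyve1 and Cd163 had no reads, whereas others of that list were abundant. The highest were Folr2 in runs 1 and 2, at 573 and 455 CPM, and Ms4a7 in run 3, at 453 CPM. The part of such cells in the level of Mrc1 was not tested.

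Stab1 (chromosome 14, 31139013 to 31168641, minus strand) encodes stabilin-1, which carries ligands such as SPARC from the surface to lysosomes. In the control its level was 93.8, 120.1 and 216 CPM. In acceptors it was 122, 144 and 233 at 0 min, 124, 142 and 194 at 15 min, 126, 159 and 238 at 30 min, 123, 163 and 196 at 60 min, 113, 136 and 240.4 at 150 min, and 235, 167 and 271 at 300 min. In donors it was 42.2, 70.4 and 77.3 at 0 min, 53.9, 47.7 and 91.5 at 15 min, 53.0, 47.7 and 80.5 at 30 min, 55.6, 55.7 and 81.0 at 60 min, 45.4, 63.6 and 76.8 at 150 min, and 48.5, 87.2 and 95.9 at 300 min. The highest donor value, 95.9 CPM, lay below the lowest acceptor value, 113, and above 1 of the 3 control values, while donors at 0 min did not overlap the control. Of all genes tested, 3.51% were lower in all 18 donor libraries than in all 18 acceptor libraries, and Stab1 was the only one of the 8 receptors to be so. The fitted difference was -1.18 ± 0.35 log2 units against the control (SE, adjusted p = 0.0151, edgeR) and -1.41 ± 0.14 against acceptors (adjusted p = 3.08e-10, edgeR), a 2.65-fold difference. Without control replicate 2, the highest of the 3, the difference from the control was -0.76 log2 units and not called (adjusted p = 0.183, edgeR), and without donor replicate 2 at 0 min it was -0.96 and not called (adjusted p = 0.0984). Levels were highest on average in run 3 in donors, at 76.8 to 95.9 CPM, and in acceptors, at 194 to 271 CPM. Both ranges overlapped another run, as donors of run 2 reached 87.2 CPM and acceptors of run 1 reached 235. That acceptor value came from the library at 300 min that stood apart in its marker sum and TMM factor. Markers of other cells moved with run 3 in acceptors, where neuronal markers summed to 30.8 to 36.9 CPM against 3.89 to 11.5 in the other runs, astrocyte markers to 40.2 to 48.3 against 13.9 to 29.1, and vascular markers to 64.3 to 98.9 against 142 to 257. The control library of run 3 had 31.2, 40.1 and 67.8 CPM of these. Their part in the levels of Stab1, and of Mrc1, Scarb1 and Cd36, also highest on average in acceptors of run 3, was not tested. The end of Stab1 shares 112 exonic bases (chromosome 14, 31139013 to 31139124) with Nt5dc2 on the opposite strand. Since strand use in counting is not given, reads of the 2 genes there cannot be told apart. Nt5dc2 itself had 58.3 to 137 CPM in control libraries, from 79.8 to 344 among acceptors and from 63.3 to 138 among donors, and differed by -0.08 log2 units from the control (adjusted p = 0.884, edgeR) and by -0.37 from acceptors (adjusted p = 0.00941, edgeR).

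**Figure D3:**
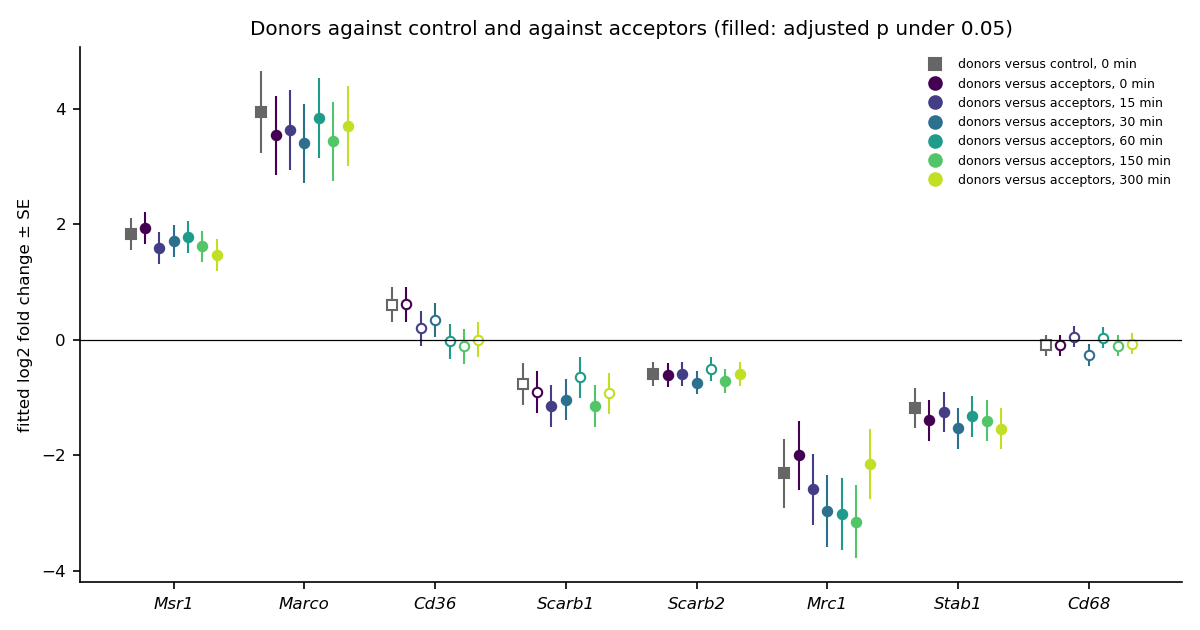
Fitted log2 fold changes ± SE (edgeR) of donors against the control at 0 min (squares) and against acceptors at each of the 6 times (circles) for the 8 tested receptors, filled where the adjusted p is under 0.05. Msr1 and Marco are filled above 0 and Mrc1 and Stab1 filled below 0 in each comparison, and Cd36 and Cd68 are open in each.

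Among class B receptors, Scarb2 (chromosome 5, 92441314 to 92506833, minus strand) encodes LIMP-2, a membrane protein of lysosomes. In the control its level was 133, 173 and 197 CPM. In acceptors it was 144, 178 and 189 at 0 min, 138, 212 and 164 at 15 min, 154, 184 and 187 at 30 min, 156, 184 and 175 at 60 min, 155, 197 and 178 at 150 min, and 169.9, 158 and 164 at 300 min. In donors it was 131, 112 and 92.2 at 0 min, 142, 107 and 93.1 at 15 min, 117, 99.3 and 98.3 at 30 min, 138, 133 and 93.0 at 60 min, 118, 125 and 80.0 at 150 min, and 115, 124 and 88.0 at 300 min. The populations overlapped slightly, donors reaching 142 CPM and acceptors starting at 138, and the donor library was lower in 17 of 18 pairs of one run and time. The fitted difference was -0.59 ± 0.21 log2 units against the control (SE, adjusted p = 0.0404, edgeR) and -0.62 ± 0.08 against acceptors (adjusted p = 9.77e-08, edgeR), a 1.54-fold difference. Against the control this call was lost in 6 of 12 alternatives, at -0.46 log2 units and an adjusted p of 0.201 (edgeR) without control replicate 2. Run 3 held the lowest donor values, 80.0 to 98.3 CPM, against 99.3 to 133 in run 2 and 115 to 142 in run 1.

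Scarb1 (chromosome 5, 125277087 to 125341094, minus strand), the class B receptor for high-density lipoprotein, was lower in donors than in acceptors but was not called against the control. In the control its level was 17.3, 32.2 and 51.6 CPM. In acceptors it was 30.9, 30.7 and 49.1 at 0 min, 31.5, 36.5 and 45.7 at 15 min, 45.3, 26.7 and 52.5 at 30 min, 38.96, 29.2 and 44.5 at 60 min, 44.6, 22.3 and 45.4 at 150 min, and 46.8, 23.9 and 50.1 at 300 min. In donors it was 23.5, 20.9 and 14.9 at 0 min, 21.4, 14.1 and 15.7 at 15 min, 29.2, 17.3 and 14.1 at 30 min, 24.8, 32.4 and 14.7 at 60 min, 23.1, 14.4 and 13.5 at 150 min, and 21.3, 23.6 and 18.5 at 300 min. The populations overlapped between 22.3 and 32.4 CPM, and the donor library was lower in 17 of 18 pairs of one run and time. The fitted difference was -0.97 ± 0.15 log2 units against acceptors over the 6 times (SE, adjusted p = 9.60e-07, edgeR), a 1.95-fold difference, and was called at 15, 30 and 150 min but not at 0, 60 or 300 min. These single-time calls depended on the libraries and settings: those at 15, 30 and 150 min were lost in 3, 4 and 4 of 12 alternatives, each leaving out 1 library, and calls were gained at 0, 60 and 300 min in 2, 1 and 3 of 12. Against the control it was -0.77 ± 0.36 log2 units (SE, adjusted p = 0.135, edgeR), with a 95% interval from -1.51 to -0.04. It was called with total-count scaling, at -1.13 (adjusted p = 0.0269), and without control replicate 3, at -1.08 (adjusted p = 0.0410), the 12 alternatives ranging in adjusted p from 0.0269 to 0.654 (edgeR and DESeq2). The control libraries spanned 17.3 to 51.6 CPM, the whole donor range of 13.5 to 32.4 falling partly within it. The distance between populations differed by run: in run 3 acceptors had 44.5 to 52.5 CPM and donors 13.5 to 18.5, and in run 2 acceptors had 22.3 to 36.5 and donors 14.1 to 32.4.

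Cd36 (chromosome 5, 17781690 to 17888801, minus strand), the class B receptor for long-chain fatty acids and oxidised lipoproteins, was not called in any comparison with the design used here. Its lowest, median and highest values were 102, 112 and 213 CPM in the control, 82.5, 147 and 231 in acceptors and 90.7, 177 and 271 in donors, which overlap throughout. Against the control the difference was 0.61 log2 units, with a 95% interval from -0.004 to 1.23 (adjusted p = 0.159, edgeR). It was called without control replicate 2, the highest of the 3, at 1.023 log2 units (adjusted p = 0.0333), and with a block by run, at 0.65 (adjusted p = 0.0160), the 12 alternatives ranging from 0.23 to 1.023 log2 units and in adjusted p from 0.0160 to 0.658. Against acceptors at 0 min the difference was 0.62 log2 units (adjusted p = 0.141) and was called with the block, at 0.61 (adjusted p = 0.0202, edgeR). Against acceptors over the 6 times it was 0.17, with an interval from -0.08 to 0.42 (adjusted p = 0.222, edgeR). In donors the mean was 218 ± 53.1 CPM at 0 min and 139.7 ± 44.1 at 300 min (SD, n = 3 each), a fitted change of -0.64 log2 units with an unadjusted p of 0.0422 and an adjusted p of 1.00 (edgeR). The donor library was higher in 11 of 18 pairs of one run and time. In acceptors run 3 was highest, at 176 to 231 CPM, against 82.5 to 148 in run 1 and 129 to 163 in run 2.

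Cd68 (chromosome 11, 69664213 to 69666153, minus strand), the late endosomal and lysosomal glycoprotein also called macrosialin, had the highest level of the 10. Its lowest, median and highest values were 1290.2, 1417 and 1568 CPM in the control, 1056, 1512 and 1715 in acceptors and 1073, 1450.3 and 1700 in donors. The difference was -0.10 log2 units against the control, with a 95% interval from -0.47 to 0.28 (adjusted p = 0.766, edgeR), and -0.07 against acceptors over the 6 times, with an interval from -0.22 to 0.08 (adjusted p = 0.424, edgeR). The pooled values cover opposite orders in different runs. In run 1 all 6 acceptor libraries, at 1546 to 1715 CPM, lay above all 6 donor libraries, at 1127 to 1424. In run 3 all 6 donor libraries, at 1488 to 1700 CPM, lay above all 6 acceptor libraries, at 1056 to 1479. In run 2 the populations overlapped. How many of all genes are separated in this way within a run was not counted. The 6 libraries of a run and population are different times, not replicates of a population. Scaled by total counts, which moves the median of all genes to -0.42 against acceptors, Cd68 was called lower at -0.41 log2 units (adjusted p = 7.07e-06, edgeR).

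Cd163 (chromosome 6, 124304656 to 124330527, plus strand), the receptor for haemoglobin bound to haptoglobin, had 0 reads in the 3 control libraries, which allows up to 0.230 to 0.271 CPM at the floor of 3 counts. It had 9 reads summed over 18 acceptor libraries and 4 over 18 donor libraries, with 16 libraries at 0 in each. Olr1 (chromosome 6, 129485244 to 129507165, minus strand), the lectin-like receptor for oxidised low-density lipoprotein, had 13 reads in the control, 58 in acceptors and 21 in donors. It was at 0 in 1 control, 7 acceptor and 13 donor libraries, and its highest value was 1.196 CPM. Neither gene was tested. Olr1 had 0 reads in the 3 donor libraries at 30 min and at 150 min. The 3 acceptor libraries had 0 to 0.225 CPM at 30 min and 0.147 to 1.196 at 150 min. The highest count in an acceptor library was 16, against the floor of 3 counts. At 150 min 40.5% of all genes tested did not overlap between donors and acceptors.

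The time comparisons ask whether receptor levels moved during co-culture. None of the 8 was called at any later time against 0 min in donors or acceptors, in the F tests over the 6 times, or in the test of a difference between the populations' time courses (edgeR). Of all genes, at most 0.0153% were called at any later time (0.00767% in acceptors at 60 min). In the F tests 0 were called over time in donors, and 2 each, or 0.0153%, in acceptors and in the difference between time courses, while 252, 461 and 195 had an unadjusted p under 0.05. DESeq2 called 1, 35 and 3 genes in these 3 tests and 0 of the 8 in each. Over the 10 comparisons with 0 min, 1 receptor had an unadjusted p under 0.05 once, Cd36 in donors at 300 min. Marco in donors averaged 76.96 ± 2.92 CPM at 0 min and 91.6 ± 13.04 at 300 min, and Mrc1 7.22 ± 1.396 and 6.25 ± 3.65 (SD, n = 3 each). Acceptors at 0 min against the control gave 0 calls among the 8 and 0 among all genes in edgeR and in DESeq2, with 263 genes and 0 of the 8 at an unadjusted p under 0.05 in edgeR.

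**Figure D4:**
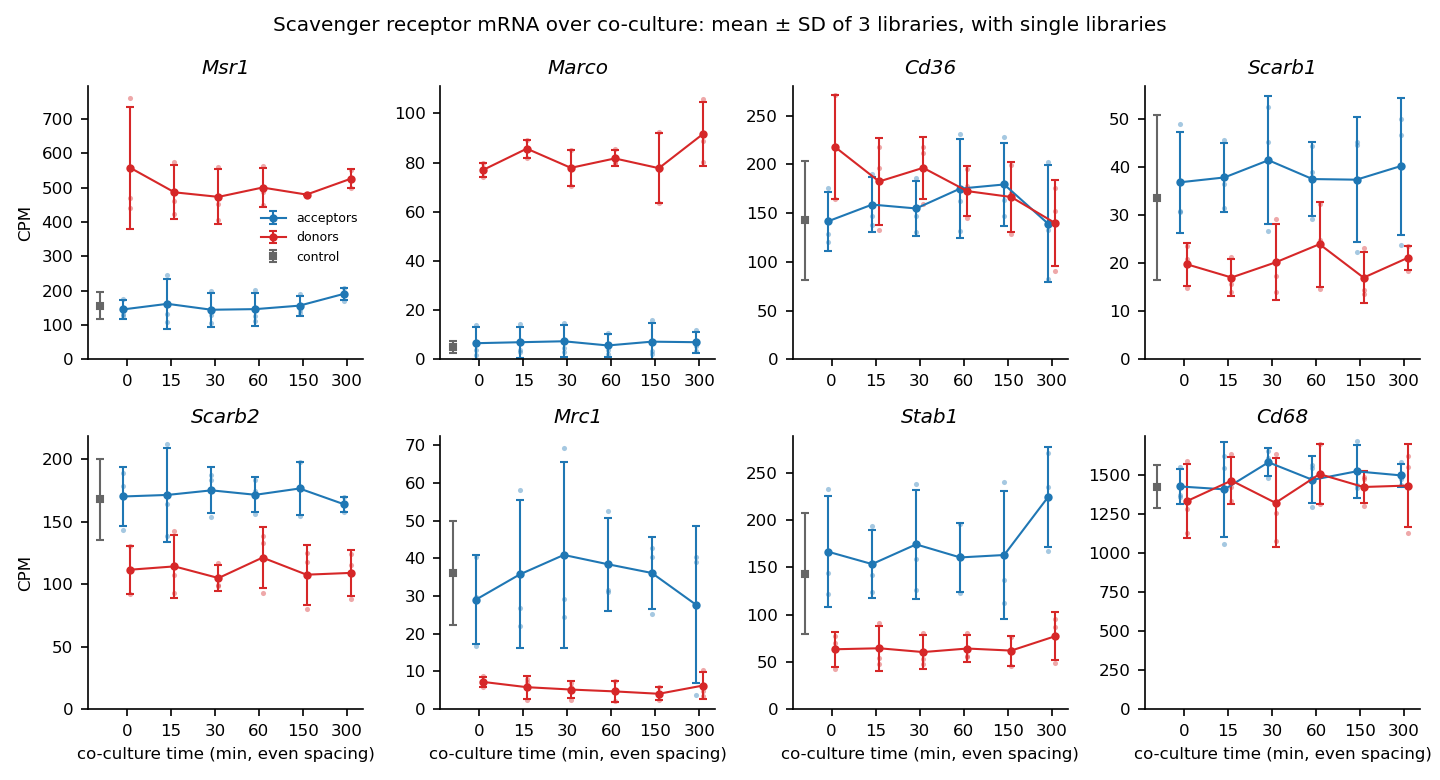
Mean ± SD (n = 3) of CPM over co-culture time (even spacing, min) in donors and acceptors, with single libraries as pale points and the control as a square. The lines of Msr1 and Marco lie apart at each time, donors above, and no receptor was called over time in either population.

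At single times, donors against acceptors gave 5, 6, 6, 4, 6 and 5 called receptors of 8 at 0, 15, 30, 60, 150 and 300 min, where 22.8%, 21.9%, 22.6%, 22.2%, 22.1% and 23.0% of all genes were called. Of all genes 11.4% to 12.5% were higher and 9.69% to 11.6% lower at these times. Msr1 and Marco were called higher and Mrc1 and Stab1 lower at each of the 6 times. Stab1 lost its call at 15 min without donor replicate 1, donor replicate 3 or acceptor replicate 3 (adjusted p = 0.0613, 0.0505 and 0.0560, edgeR) and at 150 min without acceptor replicate 3 (0.0607). Mrc1 lost it at 0 min without acceptor replicate 2 or donor replicate 3 (adjusted p = 0.0719 and 0.0553, edgeR) and at 300 min when only the compared groups were fitted (0.136). Scarb2 was called lower at all but 60 min, and Scarb1 at 15, 30 and 150 min. The calls of Scarb2 were lost without 1 or another library at 0, 15, 150 and 300 min. Those at 0, 15 and 300 min were also lost when only the compared groups were fitted (adjusted p = 0.0557, 0.105 and 0.174, edgeR). That at 15 min was lost without the low-count filter as well (0.0501, edgeR). At 60 min Scarb2 was called with total-count scaling (adjusted p = 0.00260, edgeR) and with DESeq2 (0.0402). In the order of the 13 group means the 6 donor groups took the first 6 places for Msr1 and Marco. They took the last 6 places for Scarb1, Scarb2, Mrc1 and Stab1. For Msr1 only the step from donors at 30 min to acceptors at 300 min exceeded the larger SD, and for Scarb2 only that from acceptors at 300 min to donors at 60 min. For Marco the step from donors at 0 min to acceptors at 30 min did so, and so did that from donors at 15 min to donors at 60 min. For Stab1 the step from the control to donors at 300 min did so, with overlapping ranges. For Mrc1, Scarb1, Cd36 and Cd68 no neighbouring groups differed by more than the larger SD.

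The genes whose levels followed each receptor most closely over the 39 libraries were chosen by Pearson's r on log2 CPM among 8520 genes, and give a description without a test, since libraries share population, run and depth. For Msr1 they were Saa3, Ptges and Procr (r = 0.976, 0.971 and 0.970), and for Marco Procr, Saa3 and Ptges (r = 0.981, 0.979 and 0.972), so the 2 class A genes had the same 3. For Mrc1 they included Selenop and Actn1 (r = 0.952 and 0.944), and for Stab1 Hmgn1, Cd93 and Nkain1 (r = 0.953, 0.950 and 0.948). For Scarb2 they were Uggt1, Erp29 and 2810025M15Rik (r = 0.922, 0.915 and 0.908), and for Scarb1 Bckdk, Fcrls and Tpcn1 (r = 0.852, 0.840 and 0.840). Cd36 was followed by Ahnak (r = 0.851) and Cd68 by Gyg (r = 0.748), less closely. With the population means subtracted, Marco kept Procr and Saa3 (r = 0.843 and 0.825), Msr1 was followed by Clec4d (r = 0.892) and Stab1 by Nnat (r = 0.901).

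Other scavenger receptors were given by a list of 25 genes, of which 21 were in the table and 15 were tested. In donors 2 were higher and 2 lower than in the control (19.7% of all genes were called), and 4 were higher and 6 lower than in acceptors (62.6% of all genes), with medians of 0.02 and -0.31. With total-count scaling, these counts were 0 higher and 2 lower, and 2 higher and 7 lower. Colec12, a class A receptor with a lectin domain, averaged 42.3 ± 13.1 CPM in acceptors and 88.9 ± 27.4 in donors (SD, n = 18 each), 1.07 log2 units apart (adjusted p = 6.07e-07, edgeR). Scarf2, a class F receptor, was also higher, by 1.07 log2 units, and Cd44, the hyaluronan receptor, by 0.48. Cd5l, a soluble macrophage protein with scavenger receptor cysteine-rich domains, averaged 23.3 ± 12.3 CPM in acceptors and 1.37 ± 0.52 in donors (SD, n = 18 each), a difference of -4.07 log2 units (adjusted p = 6.54e-18, edgeR). Clec7a, the beta-glucan receptor dectin-1, differed by -2.72 log2 units (adjusted p = 1.78e-17, edgeR), and Ssc5d, another cysteine-rich scavenger protein, by -2.22.

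**Figure D5:**
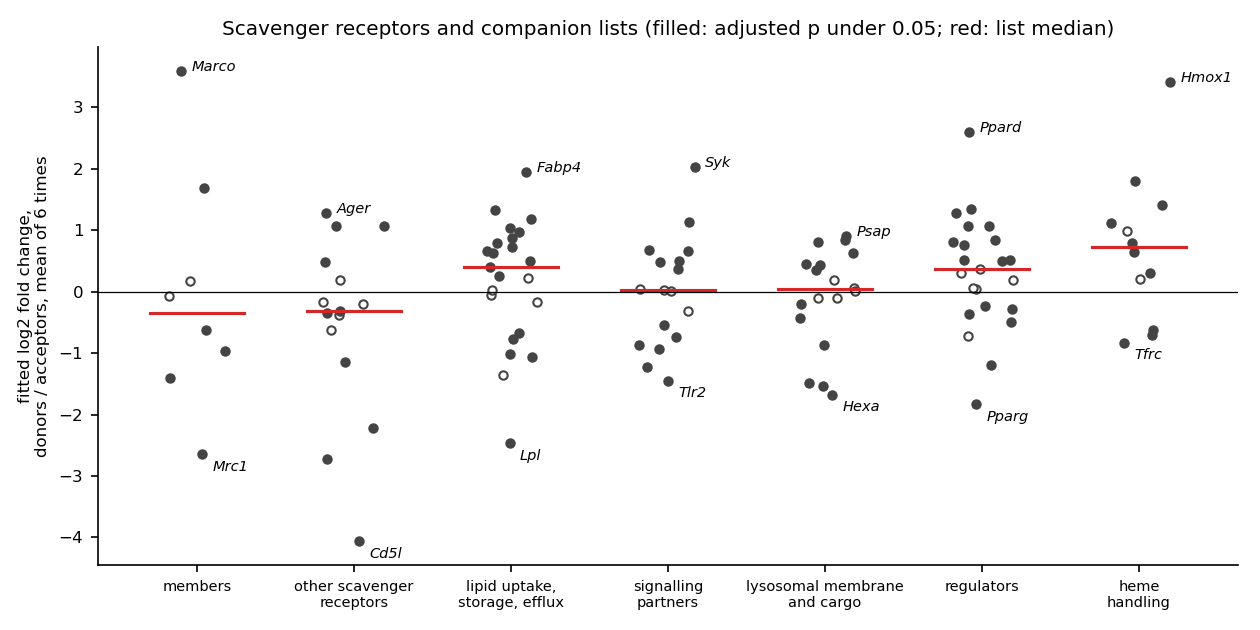
Fitted log2 fold changes of donors against acceptors, mean of 6 times, for the 8 tested receptors and the tested genes of 6 companion lists, filled where the edgeR adjusted p is under 0.05, with red bars at list medians. Marco at 3.60 and Hmox1 at 3.41 lie highest and Cd5l at -4.07 lowest.

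The list of lipid uptake, storage and efflux, the cargo route of Cd36 and Scarb1, had 23 tested genes. In donors 6 were higher and 3 lower than in the control (all genes 19.7% called), and 13 higher and 5 lower than in acceptors (all genes 62.6%), with medians of 0.45 and 0.39. Under scaling by totals, these were 4 and 3, and 9 and 9. The lipid droplet coat gene Plin3 was higher than in acceptors by 0.88 log2 units, the acyl-CoA synthetase gene Acsl5 by 0.96 and the fatty acid binding protein gene Fabp3 by 1.17. Lpl, lipoprotein lipase, averaged 4796 ± 773 CPM in acceptors and 863 ± 135 in donors (SD, n = 18 each), a difference of -2.47 log2 units (adjusted p = 3.73e-21, edgeR). Acsl3, another acyl-CoA synthetase gene, differed by -1.07 log2 units.

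Of 17 tested signalling partners of Cd36 and the class A receptors, 4 were higher and 5 lower in donors than in the control (all genes 19.7% called), and 7 higher and 6 lower than in acceptors (all genes 62.6%), with medians of -0.10 and 0.02. Total-count scaling gave 3 and 7, and 4 and 8. Syk, the tyrosine kinase downstream of many phagocytic receptors, averaged 126 ± 20.4 CPM in acceptors and 515 ± 36.8 in donors (SD, n = 18 each), 2.03 log2 units higher (adjusted p = 1.78e-21, edgeR). Tlr6, which pairs with Tlr2 and Cd36, was higher by 1.13 log2 units and the Src family kinase gene Lyn by 0.67. Tlr2 itself differed by -1.45 log2 units, the adaptor gene Tyrobp by -1.23 and the integrin gene Itgb1 by -0.74.

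Of 18 tested lysosomal membrane and cargo genes, the setting of Scarb2 and Cd68, 4 were higher and 3 lower than in the control (all genes 19.7% called) and 7 higher and 6 lower than in acceptors (all genes 62.6%), with medians of 0.08 and 0.04. On total counts, these were 0 and 4, and 4 and 10. Psap, the saposin precursor, was higher than in acceptors by 0.90 log2 units, the adaptor subunit gene Ap3b1 by 0.84 and the cholesterol exporter gene Npc1 by 0.63. Hexa, a lysosomal glycosidase gene, differed by -1.68 log2 units and Ctsd, cathepsin D, by -0.87.

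Of 23 tested regulators, 6 were higher and 1 lower than in the control (all genes 19.7% called) and 11 higher and 6 lower than in acceptors (all genes 62.6%), with medians of 0.21 and 0.36. After total-count scaling these were 4 and 3, and 6 and 8. The nuclear receptor gene Ppard averaged 2.88 ± 1.23 CPM in acceptors and 17.5 ± 3.65 in donors (SD, n = 18 each), 2.60 log2 units higher (adjusted p = 7.30e-15, edgeR). Stat3 was higher by 1.35 log2 units and Cebpb by 1.28. The related nuclear receptor gene Pparg, known to induce Cd36 in macrophages, differed by -1.83 log2 units, and the macrophage factor gene Maf by -0.49. Spi1, which encodes PU.1, and is named because its letters were searched above, was at 0.19 log2 units and not called (adjusted p = 0.0585, edgeR).

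Of 12 tested genes of haem handling, the route that Cd163 feeds, 5 were higher and 2 lower than in the control (all genes 19.7% called) and 7 higher and 3 lower than in acceptors (all genes 62.6%), with medians of 0.84 and 0.72. Counts after scaling by totals were 3 and 3, and 6 and 3. Hmox1, haem oxygenase 1, averaged 30.2 ± 8.04 CPM in acceptors and 317 ± 45.8 in donors (SD, n = 18 each), 3.41 log2 units higher (adjusted p = 4.70e-23, edgeR). Blvrb, a biliverdin reductase, was higher by 1.41 log2 units and Fth1, the ferritin heavy chain with many pseudogenes whose reads may be shared, by 1.81. Adam17, the protease known to shed Cd163 and other receptors, differed by -0.71 log2 units, Blvra by -0.63 and the transferrin receptor gene Tfrc by -0.83. In none of the 6 lists was a gene called over time in either population (edgeR).

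Markers of other cell types were set beside these differences, and their part in them was not tested. Astrocyte markers summed to 17.0 to 40.1 CPM in control libraries, from 13.9 to 48.3 among acceptors and from 6.43 to 27.0 among donors, and oligodendrocyte markers to 229 to 241, 182 to 361 and 152 to 331. Fibroblast and vascular markers summed to 67.8 to 272 CPM in control libraries, from 64.3 to 257 among acceptors and from 139.7 to 259 among donors. Lum and Cldn5 of that list were not among the genes of the count table. Markers of neutrophils, monocytes and dendritic cells summed to 3.68 to 12.2 CPM in control libraries, from 1.99 to 15.9 among acceptors and from 16.9 to 101 among donors. The highest donor sums were in run 3, at 69.1 to 101 CPM against 16.9 to 47.3 in the other runs. S100a8 was the highest of the list in every donor library. It held 14.2 CPM of the lowest donor sum, 16.9, and 93.3 of the highest, 101, both at 0 min. Of the 6 tested, 1 was higher and 0 lower in donors than in the control (all genes 19.7% called). Against acceptors, 1 was higher and 2 lower (all genes 62.6%), and the medians were -0.10 and -0.15 log2 units. S100a9, Ly6g, Ngp and Flt3 were not among the genes of the count table, so these sums cover 7 of the 11 listed markers. Neuronal markers summed to at most 36.9 CPM in any library.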

How the data were processed

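The authors deposited whole-number read counts per gene and library, and a second table of normalized signal, which equals the counts times 1 factor per library (0.712 to 1.63), both per the file headers and values. Per the submitters' processing notes, the mm10 build was used, with STAR, Partek and DESeq2 as tools. How duplicates, strand and reads mapping to several places were treated: not given in the sources used here. Reads were 100 bases, single, from a 3′ tag kit, per the labels' protocols.

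From the deposited counts, edgeR 4.0.16 (R 4.3.3) kept genes by filterByExpr (minimum count 10, minimum total count 15), which hold 99.97% of reads. It scaled by TMM and fitted all 39 libraries by group with quasi-likelihood tests, Benjamini-Hochberg adjusted over 13034 genes, at 0.05. The fit was also run on simulated data with independent libraries and no effect of run. That simulation cannot bear on p-values where libraries of a run are alike. CPM uses the TMM-scaled totals, and levels for likeness used a prior count of 2 and genes of mean CPM 5 or more. Intervals are 95% and cover the spread between libraries, and the floor of 3 counts covers counting error only. With 3 libraries against 3, an exact permutation test cannot go below p = 0.1, so none was used. Symbols were matched to GENCODE M21 (96.5% of symbols) for positions.

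All 10 receptors were described, those called in donors library by library, and up to 3 genes per direction of each companion list were named by the smallest adjusted p against acceptors. Some genes that this rule or the likeness ranking names are not reported here. The receptors and lists were chosen with earlier results of these data known. Alternatives were total-count and RLE scaling, no low-count filter, a fit to the compared groups only, DESeq2 1.42.0, a block by run and leaving out each library. Total-count scaling of the companion lists was chosen after seeing the data.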

Additional observations from a re-analysis of the deposited data

How the results depend on the processing

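Msr1 and Marco kept their calls in donors under every alternative run, and 0 receptors were called over time or in acceptors against the control under any. Leaving out 1 library at a time, receptors called ran from 4 to 6 against the control, and against acceptors from 3 to 5 at 0 min, 3 to 6 at 15 min, 5 to 6 at 30 min, 4 to 4 at 60 min, 4 to 6 at 150 min, 4 to 6 at 300 min and 6 to 6 over the 6 times. All genes called in these fits ran from 1664 to 2211 against the control, where 2565 were called with all libraries, and from 1954 to 2506 against acceptors at 0 min, where 2975 were. The count of 3 at 0 min came without acceptor replicate 2 or donor replicate 3, and that at 15 min without donor replicate 1 or acceptor replicate 3. It was also 3 at 300 min when only the compared groups were fitted. The cause was not tested. Leaving out 1 library moved Cd68 against the control between -0.24 log2 units, without donor replicate 1 at 0 min, and 0.010 without donor replicate 3. Of 846 alternatives to the 53 receptor differences called in at least 1 setting, 785 kept the direction and the side of the threshold, called or not, 44 lost a call, 16 gained one and 1 reversed.

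The replicate block by run gave 6 receptors called against the control and 6 against acceptors at 0 min, adding Cd36 (0.65 and 0.61 log2 units, edgeR adjusted p = 0.0160 and 0.0202), and changed no other call. Same-run libraries deviated together, with every correlation over 0.1, in 11 of 18 pairs of groups (-0.296 to 0.455 in all), and the labels do not say that a run pairs libraries. Total-count scaling moved the median of all genes to -0.39 log2 units against the control and -0.42 against acceptors, with 22.0% and 25.8% of called genes higher, against 52.6% and 47.2% with TMM. It called 7 receptors in each, 2 higher and 5 lower. With population means subtracted, the 3 genes most alike shared 2 with the first choice for Marco, 1 for Scarb1, Scarb2 and Cd68 and 0 for the others.

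Depth limits Cd163 and Olr1, and 3 libraries a group limit the single-time comparisons.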
